A study of Homo sapiens with 12 samples.

Results

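The miR-216 and miR-217 cluster is a group of 3 microRNA (miRNA) hairpins in introns of the long non-coding RNA gene MIR217HG, and its members here are their 5′ strands, hsa-miR-216a-5p, hsa-miR-216b-5p and hsa-miR-217-5p. They were taken by name, which gave 3 of the 2652 mature miRNAs in the data. The cells were Huh7, a hepatocellular carcinoma line, and the assay was SLAMseq of small RNA, in which 4-thiouridine (4SU) enters newly made RNA and is read as a thymine-to-cytosine (T>C) conversion after alkylation. Control cells received DMSO without 4SU, DMSO cells received DMSO with 4SU, and PlaB cells received pladienolide B (PlaB), an inhibitor of the splicing factor SF3B1, with 4SU. There were 4 libraries per condition, and labelling was with 500 µM 4SU for 4 h. The PlaB concentration is 1 µM in the methods of the study but 500 µM in the sample labels, so it is uncertain. Huh7 is a single tumour line, so all 12 libraries share its genotype. Total reads counted on miRNAs were 1667668 to 2393680 in Control, 1968612 to 3880241 in DMSO and 1522210 to 1979696 in PlaB. According to the paper, its DMSO samples A and B each combine the original, a re-prepared and a re-amplified library. They were taken to be DMSO replicates 1 and 2, although the sample labels give numbers and not letters. The hepatocyte miRNA miR-122-5p was at 55353 to 105331 CPM (read counts scaled to a common library total), and the other hepatocyte markers, miR-192-5p and miR-194-5p, were at 14346 CPM or more. Of 10 markers of other cells, endothelial miR-126-3p was at 385 to 632 CPM, a level like that of the more abundant members, pancreatic islet miR-375-3p at 50.8 to 98.9 CPM and neural miR-9-5p at 1.97 to 54.9 CPM. The other 7, of blood, muscle and neural cells, had medians below 1 CPM and were at most 10.2 CPM. The 10 summed to 482 to 620 CPM in Control, 570 to 731 CPM in DMSO and 562 to 619 CPM in PlaB, and their part in the results was not tested.

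A miRNA is cut from its primary transcript as a hairpin by the Microprocessor in the nucleus, and Dicer then releases a short duplex of which one strand guides gene silencing. The target is chosen largely by the seed, the bases near the 5′ end of the miRNA. The miR-216 and miR-217 miRNAs are conserved among vertebrates and are best known as miRNAs of the pancreas, where acinar cells are rich in them. They have also been described in liver cancer.

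The sequences below, from the RefSeq miRNA table on GRCh38, show how far the members share a seed, which is in capitals (bases 2 to 8). All are on the minus strand of chromosome 2. The miR-216a-5p sequence is at chr2:55989020-55989041, miR-216b-5p at chr2:56000764-56000785 and miR-217-5p at chr2:55983020-55983042.
hsa-miR-216a-5p: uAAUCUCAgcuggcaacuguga
hsa-miR-216b-5p: aAAUCUCUgcaggcaaauguga
hsa-miR-217-5p: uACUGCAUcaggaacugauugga
The miR-216 pair was identical at 18 of 22 positions, and the substitutions from miR-216a-5p to miR-216b-5p, counted from the 5′ end, were U1A, A8U, U11A and C17A. Their seeds therefore differ in the last base only, whereas the seed of miR-217-5p is different and is shared with hsa-miR-6807-3p in the same table. The number of uridines, the bases at which a conversion can be seen, was 6 in miR-216a-5p, 5 in miR-216b-5p and 6 in miR-217-5p. No read of any member mapped to several places in any library, so the similar miR-216 miRNAs were counted apart.

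The hairpins, with both mature strands in capitals, show where the 5′ strands lie in each precursor.
MIR216B: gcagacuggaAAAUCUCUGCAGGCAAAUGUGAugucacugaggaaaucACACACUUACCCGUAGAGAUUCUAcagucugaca
MIR216A: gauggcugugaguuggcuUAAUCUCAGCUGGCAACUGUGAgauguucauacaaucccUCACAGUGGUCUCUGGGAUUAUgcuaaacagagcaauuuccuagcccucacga
MIR217: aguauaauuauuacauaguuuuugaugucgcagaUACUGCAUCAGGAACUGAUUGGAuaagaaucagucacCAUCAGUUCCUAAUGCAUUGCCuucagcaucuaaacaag
In the direction of transcription the order was MIR216B (chr2:56000714-56000795), MIR216A (chr2:55988950-55989059) and MIR217 (chr2:55982967-55983076). The gap between the first pair was 11654 bases and that between the second pair 5873 bases. The host gene spans chr2:55963191-56047326 and has 2 annotated transcripts in GENCODE. All 3 hairpins were intronic in both. In MIR217HG-201 they shared one intron of 49726 bases between exons 2 and 3. In MIR217HG-202 an additional exon separated MIR216B, in an intron of 19587 bases, from MIR216A and MIR217, in the next intron of 29990 bases. From the 5′ end of MIR217HG-201 the hairpins began 46531 bases (MIR216B), 58267 bases (MIR216A) and 64250 bases (MIR217) downstream.

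**Figure D1:**
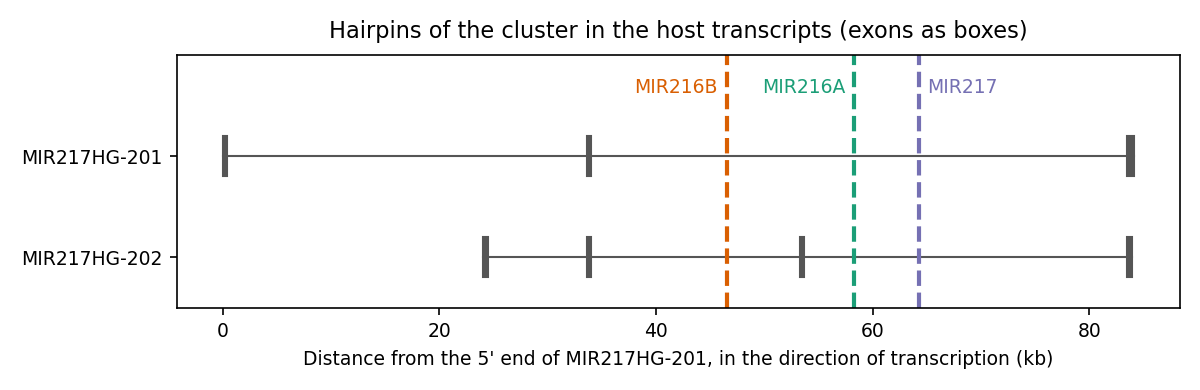
The horizontal axis is the distance in kb from the 5′ end of MIR217HG-201 in the direction of transcription, boxes are exons (short ones widened to be visible), lines are introns and dashed lines mark the hairpins. The hairpins share the last intron of MIR217HG-201 and lie on both sides of an exon of MIR217HG-202.

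The amounts of the members were compared first, to ask whether labelling or PlaB altered how many reads each one gave. They did not pass the test in any comparison, and the libraries of the conditions overlapped for each member. miR-217-5p was at 488, 308, 407 and 473 CPM in Control replicates 1 to 4, at 604, 335, 412 and 404 CPM in DMSO and at 528, 305, 426 and 422 CPM in PlaB. miR-216b-5p was at 395, 236, 382 and 402 CPM in Control, at 522, 257, 357 and 391 CPM in DMSO and at 516, 261, 324 and 307 CPM in PlaB. miR-216a-5p was at 87.5, 33.0, 65.1 and 65.7 CPM in Control, at 117, 49.1, 71.9 and 69.6 CPM in DMSO and at 95.3, 43.9, 55.2 and 80.6 CPM in PlaB. Replicate 2 was the lowest library of its condition for every member. Replicate 1 was the highest for every member and condition, other than miR-216b-5p in Control, where replicate 4 was the highest. The sum of the 3 members was 970.8, 1243 and 1139 CPM in replicate 1 of Control, DMSO and PlaB, against 577, 642 and 610 CPM in replicate 2. The libraries therefore differed more between experiments than between conditions. Cells were not counted in the files, and fewer cells and less RNA per cell cannot be told apart in such bulk libraries.

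For DMSO against Control, the log2 fold change of reads was 0.30 ± 0.30 for miR-216a-5p, 0.12 ± 0.22 for miR-216b-5p and 0.07 ± 0.18 for miR-217-5p (± SE; adjusted p = 0.707, 0.910 and 0.923 by the quasi-likelihood test of edgeR, which gave every adjusted p below). Of the 537 miRNAs tested, 5.96% passed the threshold, an adjusted p of 0.05. For PlaB against DMSO the changes were −0.17 ± 0.30, −0.13 ± 0.22 and −0.07 ± 0.18 in the same order (edgeR adjusted p = 0.992 for each), and 0.372% of all miRNAs passed. For PlaB against Control they were 0.14 ± 0.30, −0.01 ± 0.22 and 0.00 ± 0.18 (edgeR adjusted p = 0.908, 0.996 and 0.996), and 6.7% of all miRNAs passed. With the replicate number as a block the SEs for DMSO against Control were smaller, at 0.16, 0.12 and 0.09, and no member passed (edgeR adjusted p = 0.258, 0.679 and 0.734). miR-216a-5p was higher in DMSO than in the Control library of the same number in 4 of 4 pairs, miR-216b-5p in 2 and miR-217-5p in 3. A p that misses the threshold does not show that the levels were equal.

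**Figure D2:**
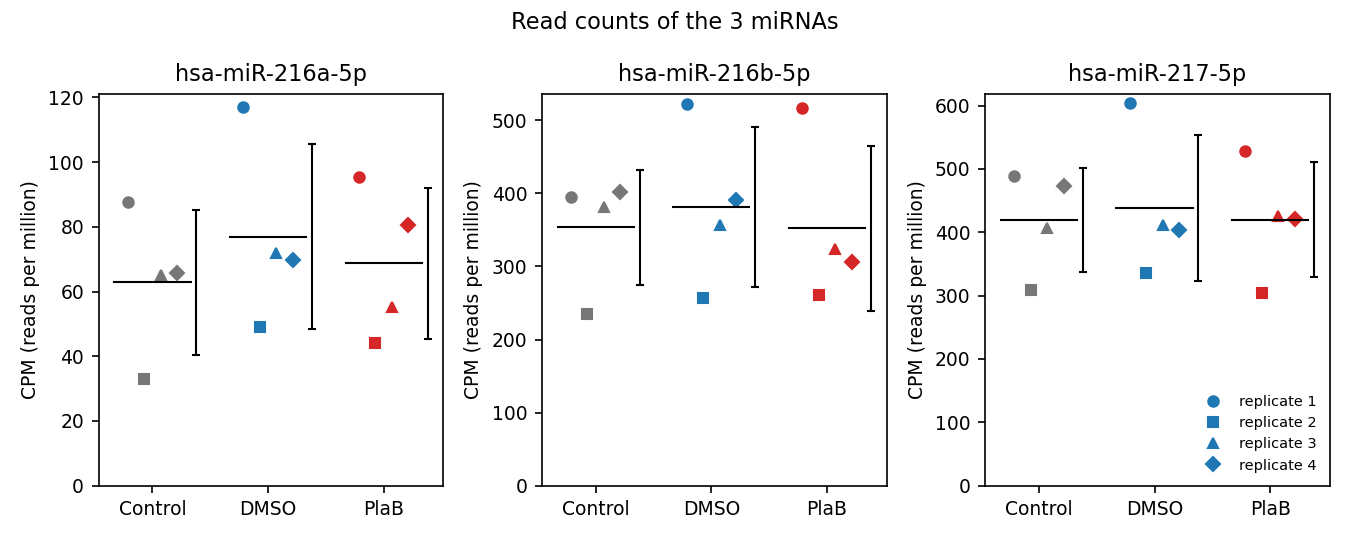
Each panel shows the CPM (vertical axis) of 1 miRNA in the 4 libraries of Control, DMSO and PlaB; symbols mark the replicate number, horizontal lines the mean and vertical bars the SD. The conditions overlap for every miRNA, and replicate 2 (squares) is lowest in each.

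The level was compared between the members within each library, in CPM, which counts reads and needs no correction for length for miRNAs of 22 or 23 bases. Over the 12 libraries miR-217-5p had 426 ± 88.4 CPM, miR-216b-5p 363 ± 92.96 CPM and miR-216a-5p 69.5 ± 23.4 CPM (SD, n = 12). They ranked 104, 113 and 203 of the 537 miRNAs tested. The ratio of miR-216b-5p to miR-217-5p was 0.727 to 0.979, so that miR-217-5p was higher in each library although the spreads of these neighbours overlap. The ratio of miR-216a-5p to miR-216b-5p was 0.140 to 0.263, and their ranges did not overlap. The mean ratio of miR-216a-5p to miR-217-5p was 0.146 ± 0.0309 for the Control libraries, 0.172 ± 0.0193 for DMSO and 0.161 ± 0.0292 for PlaB (SD, n = 4), with ranges that overlap.

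The members also followed each other over the libraries. Among the miRNAs with a mean of at least 50 CPM, the one whose log2(CPM + 1) was most like that of miR-216a-5p was miR-217-5p (Pearson's r = 0.924), followed by miR-885-5p (0.910) and miR-125b-5p (0.900), with miR-216b-5p at rank 5 (0.890). For miR-216b-5p the order was miR-217-5p (0.932), miR-885-5p (0.921) and miR-216a-5p (0.890). For miR-217-5p it was miR-885-5p (0.939), miR-216b-5p (0.932) and miR-125b-5p (0.930), with miR-216a-5p at rank 4 (0.924). The median r over all of these miRNAs was 0.214, 0.164 and 0.198 for the 3 members. These correlations describe 12 libraries from 4 experiments, share library totals and carry no test.

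The rate of T>C conversions per covered T position measures the labelling of a miRNA, and its change between conditions bears on how much was newly made. The paper states that synthesis cannot be compared directly between different miRNAs by this method, and that incorporation differs between them. The order of the members below is therefore an order of labelling. In DMSO the order was miR-216a-5p, miR-217-5p and miR-216b-5p, which differs from the order of the read levels. miR-216a-5p and miR-217-5p were labelled above Control, and miR-216b-5p did not pass the test. In PlaB the conversions of all 3 members fell to 8 of 32157 covered T positions, against 207 of 57541 in DMSO and 13 of 37762 in Control.

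miR-216a-5p, the least abundant member, was the most labelled. The study limited its own analysis to miRNAs over 100 CPM in all of its datasets. Only in DMSO replicate 1 was miR-216a-5p above that minimum. Its conversions over covered T positions in DMSO replicates 1 to 4 were 40 of 2695, 11 of 959, 13 of 868 and 12 of 821, which are rates of 1.48%, 1.15%, 1.50% and 1.46%. In Control the conversions were 0 of 874, 1 of 473, 0 of 706 and 0 of 934. Every DMSO library was thus above every Control library, at a mean of 1.40% ± 0.168 against 0.0529% ± 0.106 (SD, n = 4; two-sided exact permutation p = 0.0286, the smallest that 4 against 4 libraries allow). In edgeR the log2 fold change reached 4.84 ± 1.25 (SE), with an adjusted p of 0.000546. Over the 4 DMSO libraries the pooled rate was 1.42% (Wilson 95% interval 1.14% to 1.78%, counting error only), from 76 conversions on 72 reads.

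In PlaB no conversion of miR-216a-5p was seen in 859, 509, 524 and 921 covered T positions. At the pooled DMSO rate these positions would have held 40.0 conversions in all, and 7.24 to 13.1 in each library. With 0 of 2813, a rate of 0.107% is still possible. The pooled DMSO rate was 13.3-fold above that limit, counted over the condition, with the counting error of DMSO left out. With the counting error of both conditions, the interval of the pooled PlaB rate relative to DMSO reached up to 0.0945. The groups did not overlap (exact permutation p = 0.0286, two-sided), and the fitted change passed the threshold (edgeR adjusted p = 0.000214). PlaB and Control could not be told apart at this depth, with 0 and 1 conversions (edgeR adjusted p = 0.677). Both calls against DMSO held in each of the 18 alternatives in which miR-216a-5p was tested.

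miR-217-5p, the most abundant member, had an intermediate rate. In DMSO it had 40 conversions in 14039 covered T positions, 40 in 6563, 11 in 5012 and 13 in 4770, which are rates of 0.285%, 0.609%, 0.219% and 0.273%. In Control it had 1 of 4869, 1 of 4415, 2 of 4423 and 1 of 6758, and in PlaB 3 of 4806, 1 of 3615, 1 of 4071 and 2 of 4823. DMSO replicate 2 was high, and all 4 DMSO libraries were above all Control and PlaB libraries (two-sided exact permutation p = 0.0286 for each comparison). The means were 0.347% ± 0.178 in DMSO, 0.0258% ± 0.0134 in Control and 0.0390% ± 0.0172 in PlaB (SD, n = 4). In the high library the 40 conversions were on 32 reads, so that some reads carried more than one.

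The log2 fold change of miR-217-5p was 3.69 ± 0.92 when DMSO was set against Control and −3.06 ± 0.89 when PlaB was set against DMSO (SE; edgeR adjusted p = 0.000328 and 0.00623). From the pooled conversions PlaB was 8.47-fold lower than DMSO, with 7 conversions where 59.3 would be found at the DMSO rate. The PlaB call was lost without DMSO replicate 2 (edgeR adjusted p = 0.0952, log2 fold change −2.64), and both calls were lost without DMSO replicates 1 and 2 (edgeR adjusted p = 0.0705 and 0.341). The direction held in all 19 alternatives. PlaB against Control gave a ratio of 1.65 (95% interval 0.452 to 6.61, counting error only), and the change did not pass the test (edgeR adjusted p = 1).

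miR-216b-5p, which shares most of its sequence with miR-216a-5p, had few conversions. In DMSO it had 14 of 10132, 6 of 4212, 2 of 3620 and 5 of 3850, which are rates of 0.138%, 0.142%, 0.0552% and 0.130%. In Control it had 0 of 3274, 7 of 2813, 0 of 3459 and 0 of 4764. One Control library, replicate 2, thus held all 7 conversions of the unlabelled cells, at a rate of 0.249% that was above every DMSO library. Over all miRNAs that library had a rate of 0.0280%, between the 0.0225% and 0.0319% of the other Control libraries. The mean was 0.116% ± 0.0411 in DMSO and 0.0622% ± 0.124 in Control (SD, n = 4), and the comparison did not pass (log2 fold change 0.99 ± 1.23, SE; edgeR adjusted p = 0.640; exact permutation p = 0.4). Without Control replicate 2 the Control count was 0 of 11497. The pooled DMSO rate was 4.74-fold above the limit of 3 conversions over the condition, with the counting error of DMSO left out. The call was then made (edgeR adjusted p = 0.0312, range 0.0312 to 1 in 19 alternatives).

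In PlaB miR-216b-5p had 1 of 3929, 0 of 2585, 0 of 2585 and 0 of 2930. All 4 PlaB libraries were below all 4 DMSO libraries (0.00636% ± 0.0127 against 0.116% ± 0.0411, SD, n = 4; two-sided exact permutation p = 0.0286). The pooled rate in PlaB was 0.0672 of that in DMSO (95% interval 0.00164 to 0.407, counting error only), with 1 conversion where 14.9 would be found at the DMSO rate. Across all miRNAs the change did not pass (log2 fold change −3.46 ± 1.52, SE; edgeR unadjusted p = 0.0230 and adjusted p = 0.119). It passed in 1 of 19 alternatives, the test of miRNAs over 100 CPM in every library alone (edgeR adjusted p = 0.0497; range 0.0497 to 0.492).

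For DMSO against Control, 2 of the 3 members passed the threshold, against 33.4% of the 503 miRNAs tested that passed and were higher in DMSO. The 4 DMSO libraries were above the 4 Control libraries for the same 2 members, against 29.4% of all tested. For PlaB against DMSO, 2 of 3 members passed, against 12.3% of all tested that passed and were lower in PlaB. The 4 PlaB libraries were below the 4 DMSO libraries for 3 of 3 members, against 18.1% of all tested. None of the 3 passed for PlaB against Control, where 21.9% of all tested passed and were higher in PlaB. The DMSO libraries enter both comparisons, so the calls are not independent of each other.

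**Figure D3:**
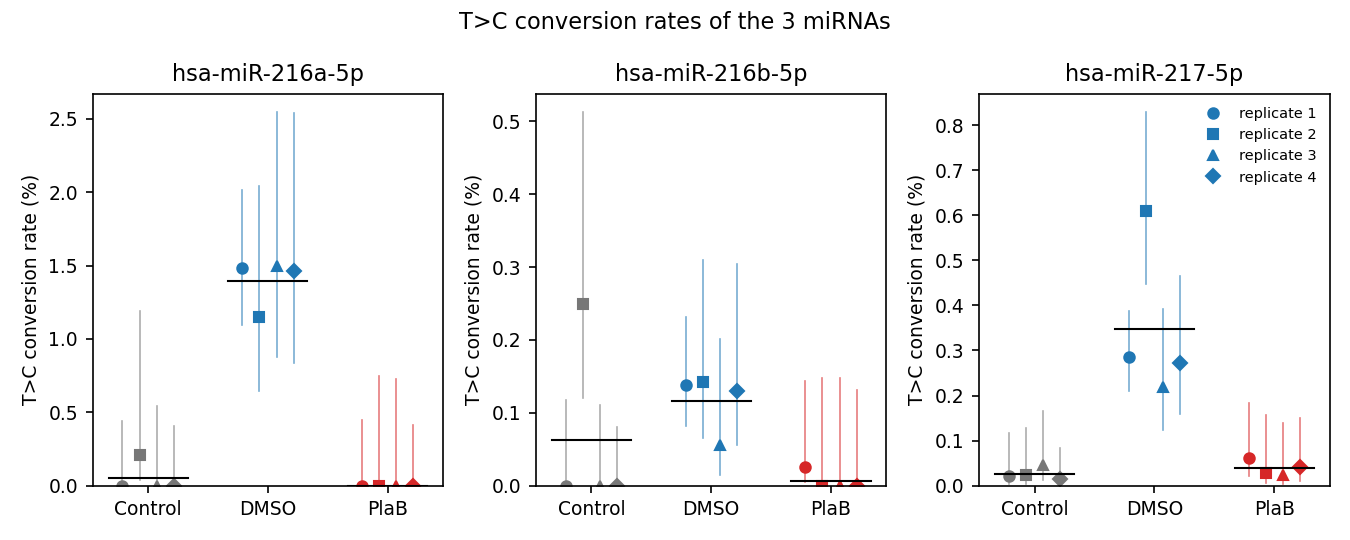
Each panel shows the T>C conversion rate (vertical axis, percent of covered T positions, on a different scale in each panel) of 1 miRNA by library; symbols mark the replicate number, thin lines Wilson 95% intervals and horizontal lines the mean of 4 libraries. All DMSO points lie above all PlaB points in every panel, and Control replicate 2 of miR-216b-5p, at 0.249%, lies above the DMSO points.

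The rates of the members were then compared with each other within each DMSO library, as levels of labelling and not of synthesis. miR-216a-5p was above miR-216b-5p by 10.7-, 8.05-, 27.1- and 11.3-fold in replicates 1 to 4, and above miR-217-5p by 5.21-, 1.88-, 6.82- and 5.36-fold. The rate of miR-216b-5p was 0.485, 0.234, 0.252 and 0.477 of that of miR-217-5p. The order was the same in 4 of 4 libraries for each of the 3 pairs. With 4 libraries, an exact two-sided test by sign flips has 16 arrangements and cannot pass the threshold of 0.05, and each pair gave its smallest possible p, also after adjustment over the 3 pairs. The small ratio of miR-216a-5p to miR-217-5p was that of DMSO replicate 2, in which miR-216a-5p was lowest and miR-217-5p highest.

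Pooling the conversions of the members gave the rate of the cluster. It was 0.350%, 0.486%, 0.274% and 0.318% in DMSO, 0.0111%, 0.117%, 0.0233% and 0.00803% in Control, and 0.0417%, 0.0149%, 0.0139% and 0.0231% in PlaB. The means were 0.357% ± 0.0915, 0.0398% ± 0.0518 and 0.0234% ± 0.0129 (SD, n = 4). DMSO was above both other conditions in every library, and Control replicate 2 was the highest of the Control and PlaB libraries. The pooled rate in PlaB was 14.5-fold lower than in DMSO. Over all miRNAs the rate was 0.246% to 0.290% in the DMSO libraries and 0.135% to 0.171% in those of PlaB. Abundant miRNAs weigh most in that rate, and miR-21-5p alone had 59585 conversions in DMSO and 29883 in PlaB. The pooled rate of the cluster in PlaB was 0.723 of that in Control (95% interval 0.260 to 1.88, counting error only). Without Control replicate 2, which leaves 4 Control conversions, it was instead 1.87 times that in Control (0.501 to 8.48). The direction of this ratio thus rests on 1 library, and both intervals include 1. miR-217-5p gave 50.2% of the DMSO conversions and miR-216b-5p 13.0%, whereas miR-216a-5p gave 36.7% of them from 9.29% of the covered T positions.

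The PlaB/DMSO ratio, the mean PlaB rate over the mean DMSO rate after the mean Control rate is taken from each, was −0.0518 for the cluster. The PlaB mean was below the Control mean, which makes the ratio negative. With each library left out it ranged from −0.0882 to 0.0270, and it was above 0 only without Control replicate 2. It was also above 0 without miR-216b-5p, at 0.0123. It was −0.0393 for miR-216a-5p (−0.0531 to 0 with each library left out, the negative values resting on 1 Control conversion) and 0.0412 for miR-217-5p (0.0169 to 0.0602). Among its conditions for this ratio, the study required over 100 CPM and a mean PlaB rate not below that of Control. miR-216a-5p met neither of these conditions. For miR-216b-5p no ratio is given, because its DMSO mean exceeded its Control mean by less than the spread of the Control libraries.

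**Figure D4:**
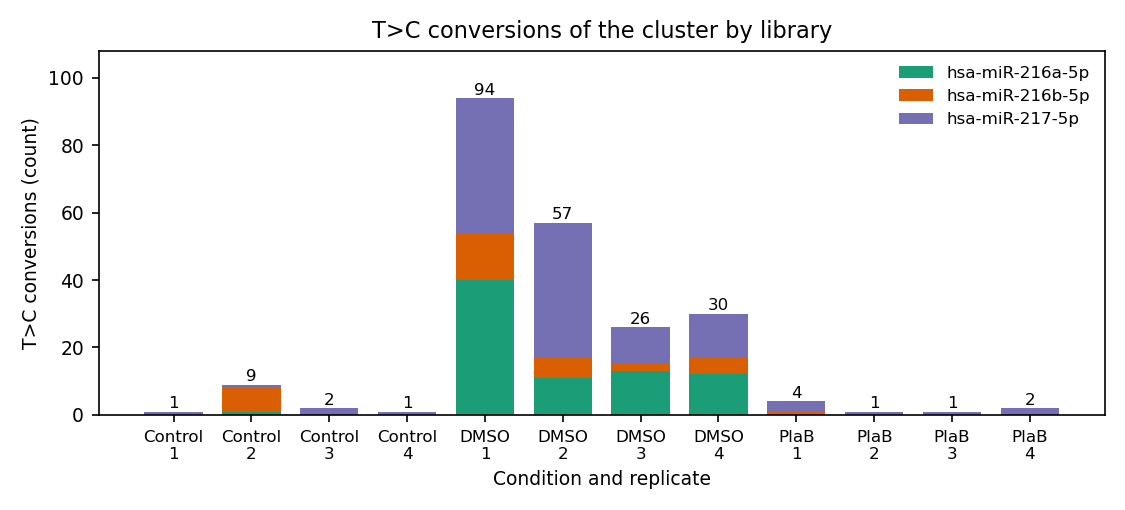
Stacked bars give the number of T>C conversions of each of the 3 miRNAs in each library (vertical axis, count), with the total above the bar. The DMSO libraries hold 26 to 94 conversions, the PlaB libraries 1 to 4, and 7 of the 9 conversions of Control replicate 2 are those of miR-216b-5p.

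The members were then placed among all miRNAs by their DMSO rate and by the rate in PlaB relative to DMSO. By mean DMSO rate, miR-216a-5p ranked 52, miR-217-5p 153 and miR-216b-5p 256 of the 503 tested, whose median was 0.119%. Of the 503, 175 had at least 20 conversions in DMSO, a minimum chosen after values were seen. In these 175, the mean PlaB rate divided by the mean DMSO rate, without subtraction, had a median of 0.382 (quartiles 0.214 and 0.637). Choosing miRNAs by their DMSO conversions favours a low ratio, for the members too, so its level and the ranks are not evidence of a decrease. It was 0 for miR-216a-5p, 0.0546 for miR-216b-5p and 0.113 for miR-217-5p, at ranks 1 (shared), 11 and 27 from the lowest. Among the 175, miR-216a-5p was one of 7 miRNAs with no conversion in any PlaB library, and it had the most DMSO conversions of these 7, 76, followed by miR-335-5p with 73. The mean PlaB rate was at or below the mean Control rate for 21 of the 175. These ranks are descriptions, since the members were chosen with earlier results of these data known.

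**Figure D5:**
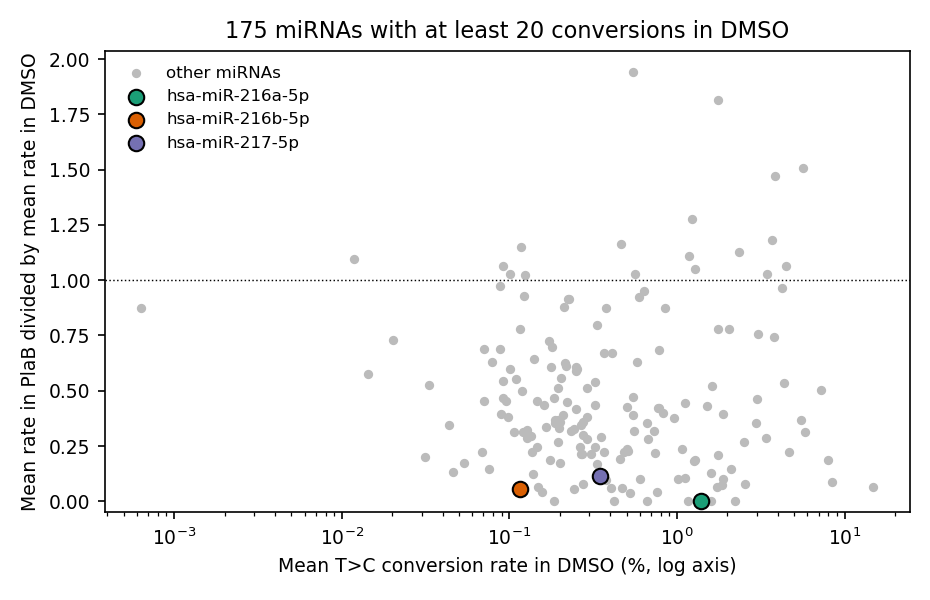
Each point is 1 of the 175 miRNAs with at least 20 conversions in DMSO, by its mean DMSO rate (horizontal log axis, percent) and its mean PlaB rate divided by its mean DMSO rate (vertical axis, no unit). The 3 members, in colour, lie between 0 and 0.113 on the vertical axis, below the first quartile of 0.214, and between 0.116% and 1.40% on the horizontal axis.

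The spread of rates within the cluster was set beside that of 5 other transcripts with several miRNAs. The mean DMSO rate, without subtraction of Control, differed 12.0-fold between the highest and lowest of the 3 members. It differed 3.51-fold among 4 miRNAs of MIR17HG (miR-17-5p, miR-18a-5p, miR-19a-3p and miR-20a-5p) and 4.30-fold among 3 of MCM7 (miR-106b-5p, miR-93-5p and miR-25-3p). The fold was 1.30 between miR-23b-3p and miR-27b-3p of AOPEP and 2.54 between miR-221-3p and miR-222-3p of MIR222HG. Among miR-532-5p, miR-501-3p and miR-660-5p of CLCN5 it was 5.50. These folds depend on the background: with the mean Control rate subtracted they were 24.8 for the cluster, whose lowest member did not pass the test against Control, and 3.37, 2.54, 1.34, 2.93 and 6.17 for the others in the same order. Within single DMSO libraries the fold was 8.05 to 27.1 for the cluster, and it reached 37.1 in MIR17HG and 20.7 in CLCN5. It was 3.91 to 5.18 in MCM7, 1.11 to 1.93 in AOPEP and 1.74 to 4.72 in MIR222HG. For the miRNAs chosen, the range of the cluster thus overlapped those of MIR17HG and CLCN5 and lay above those of the other 3 transcripts. No test of the difference was made. A single strand of each hairpin was taken, and the ranges depend on that choice. Of the strands left out, miR-17-3p had a mean DMSO rate of 7.20%, miR-25-5p 3.43%, miR-27b-5p 0.773% and miR-221-5p 1.86%. Each was above the highest rate taken from its transcript, whereas miR-18a-3p, at 0.0920%, lay within the range of MIR17HG.

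The other strands of the hairpins were rarer. miR-216a-3p was at 39.5 ± 10.6 CPM in Control, at 28.2 ± 4.85 CPM with DMSO and at 20.9 ± 9.32 CPM with PlaB (SD, n = 4). Its change in PlaB against Control did not pass (log2 fold change −0.93 ± 0.34, SE; edgeR unadjusted p = 0.0155 and adjusted p = 0.166). The ratio of miR-216a-5p to miR-216a-3p reads was 1.20 to 1.95 in the Control libraries, 1.87 to 4.63 in DMSO and 2.59 to 5.80 in PlaB. Control and PlaB did not overlap in this ratio, which was examined after its values were seen and was not tested. miR-216b-3p was at 24.6 ± 6.49, 22.97 ± 8.62 and 23.5 ± 11.2 CPM in Control, DMSO and PlaB (SD, n = 4), and miR-217-3p, at 68 reads in all 12 libraries, did not pass the filter on low counts.

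The 3′ strands that could be tested had conversions in DMSO alone. miR-216a-3p had 6 conversions in 2156 covered T positions in DMSO, 0 of 2284 in Control, which allows up to 0.131%, and 0 of 1011 in PlaB, which allows up to 0.297%. miR-216b-3p had 7 of 1625 in DMSO, 0 of 1133 in Control (up to 0.265%) and 0 of 964 in PlaB (up to 0.311%). Their pooled DMSO rates were 0.278% (Wilson 95% interval 0.128% to 0.606%) and 0.431% (0.209% to 0.887%). Neither passed for DMSO against Control (edgeR adjusted p = 0.101 and 0.115) or for PlaB against DMSO (edgeR adjusted p = 0.349 and 0.239). The interval of miR-216b-3p lies above that of miR-216b-5p (0.0851% to 0.180%), and that of miR-216a-3p below that of miR-216a-5p (1.14% to 1.78%), by counting error only.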

How the data were processed

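The deposited tables, 1 per library, hold counts made by the authors (reads, covered T positions, T>C conversions, multi-mapping reads), the authors' CPM and their rate of conversion, a fraction that is printed here as a percent. The authors trimmed reads with Trim Galore, aligned these to GRCh38 and counted on miRBase coordinates with SLAM-DUNK, which keeps multi-mapping reads and masks SNPs. The length and T content in the tables served only to check the sequences printed.

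Here, reads of 537 miRNAs kept by filterByExpr were tested with edgeR 4.0.16 in R 4.3.3 (quasi-likelihood, TMM, all 12 libraries in 1 fit). Conversions of the 503 of these that had covered T positions in every library were tested with the log of those positions as offset. Adjustment was by Benjamini-Hochberg over all miRNAs tested. The SE of a log2 fold change was not fitted but derived from the test, as the absolute change divided by the square root of its F statistic. For single rates and CPM, all 70 labelings of 4 against 4 libraries were enumerated in an exact permutation test in Python 3.11.15 with scipy 1.17.1. DESeq2 1.42.0 was an alternative, and the tests were checked on simulated data. Depth limits the rates: limits for a count of 0 are 3 conversions, and intervals are 95% and hold for counting error alone, as the reads carry no molecular identifiers and may be copies of 1 molecule. Members and lists were chosen with earlier results of these data known. The miRNAs named are the members, their other strands, the 3 most alike by read level, chosen miRNAs of 5 other clusters and cell type markers. miR-335-5p, the other strands and left-out hairpins named for those clusters and the comparison of strand ratios were chosen after values were seen.

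The methods describe 4 independent experiments with all 3 conditions in each, so replicate numbers pair libraries. The exact permutation tests of 4 against 4 libraries did not use this pairing. Exact sign flips within 4 pairs would have a smallest p of 0.125. In deviations of log2(CPM + 1) from the condition mean, same-numbered libraries correlated at r of 0.208 or more over 158 miRNAs above 100 CPM in every library (median 0.557), and at 0.0114 or more over all 537 (median 0.170). In T>C rates of 175 miRNAs the median was −0.00910.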

Additional observations from a re-analysis of the deposited data

Results flagged for a closer look

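In 24 groups of 4 libraries (read level and T>C conversion rate of the members and of the cluster, by condition), 8 had a library standing apart from the other 3, where chance gives about 1 in 20 for continuous, independent values. These values are neither: a library with 1 conversion is set apart whenever the other 3 have none, and the cluster repeats its members, so the count of 8 is not to be read against that share. Control replicate 2 was such a library in 4 of them. It held 1 conversion of miR-216a-5p (0.211%, the others at 0) and 7 of miR-216b-5p (0.249%, the others at 0), which set the cluster rate to 0.117% against 0.00803% to 0.0233% in the others. Its miR-216b-5p level was 236 CPM against 382 to 402 CPM. DMSO replicate 2 was low for miR-216a-5p (1.15% against 1.46% to 1.50%) and high for miR-217-5p (0.609% against 0.219% to 0.285%). For miR-216b-5p, DMSO replicate 3 was low (0.0552%, 2 conversions, against 0.130% to 0.142%) and PlaB replicate 1 held the only PlaB conversion (0.0255%, the others at 0). What sets these libraries apart was not tested.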

How the results depend on the processing

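The replicate block changed no call of a member: for DMSO against Control the adjusted p of T>C conversions was 0.00209 for miR-216a-5p, 0.458 for miR-216b-5p and 0.00287 for miR-217-5p in edgeR's test, and for PlaB against DMSO 0.000857, 0.243 and 0.0297. It raised the calls of reads over all miRNAs from 32 to 60 for DMSO against Control and from 2 to 6 for PlaB against DMSO. Over all alternatives, the calls of reads among all miRNAs were 8 to 60, 0 to 6 and 6 to 48 for DMSO against Control, PlaB against DMSO and PlaB against Control (32, 2 and 36 as reported), with 158 to 1530 miRNAs tested, and those of T>C conversions 127 to 184, 42 to 83 and 83 to 118. No alternative brought a member's read count past the threshold, and the small log2 fold changes of reads crossed 0. With each library left out, they ranged for DMSO against Control from -0.070 to 0.261 (miR-216b-5p) and -0.123 to 0.174 (miR-217-5p), for PlaB against DMSO from -0.359 to 0.134 (miR-216a-5p), -0.360 to 0.089 (miR-216b-5p) and -0.192 to 0.153 (miR-217-5p), and for PlaB against Control from -0.067 to 0.353, -0.218 to 0.127 and -0.102 to 0.143. Without both combined DMSO libraries, miR-217-5p was at 0.023 for PlaB against DMSO, and miR-216b-5p at 0.020 for PlaB against Control; for the latter, RLE size factors and DESeq2 gave 0.024, and the fit of the compared conditions alone 0.017. In T>C conversions, miR-216b-5p for PlaB against Control ranged from -4.276 to 1.832 with each library left out, the last without Control replicate 2, and did not pass the test. The members past the threshold in T>C conversions went from 2 to 1 for DMSO against Control when only miRNAs over 100 CPM in every library were tested, which leaves out miR-216a-5p, and without both combined DMSO libraries; for PlaB against DMSO they went from 2 to 1 without DMSO replicate 2 and without both combined libraries. The cluster rate in DMSO was 0.620% as an unweighted mean of the members, 0.252% without miR-216a-5p and 0.503% without miR-216b-5p, and in PlaB 0.00522% without miR-217-5p. As reads with a conversion over reads, another quantity, the rates were 0.222% in Control, 1.81% in DMSO and 0.130% in PlaB. The PlaB/DMSO ratio of the cluster was −0.185 without miR-217-5p and 0.0656 without subtraction of Control.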
